A study of Mus musculus with 21 samples.

Results

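Dancr, 6 further hosts of small nucleolar RNAs (Gas5, Snhg1, Snhg6, Snhg8, Snhg11 and Snhg12) and the nuclear transcripts Malat1 and Neat1 were followed in a mouse RNA sequencing series of choroid plexus and hypothalamus. These 9 long noncoding RNAs were picked by gene symbol from the 25239 rows of each deposited table, and all 9 had a row in both. They were chosen because Dancr had been seen to be higher in Ins2 choroid plexus. The Ins2 against control comparison in choroid plexus is therefore given as a description, with no test.

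Ins2 is a mouse insulin gene, and the choroid plexus is the ventricular tissue that secretes cerebrospinal fluid. The animals were wild type (WT) on the C57BL/6J background. The Ins2 groups carried Ins2 overexpression in the choroid plexus and gave 6 choroid plexus and 5 hypothalamus libraries. The control groups, labelled as no treatment, gave 5 libraries of each tissue. The labels do not say how Ins2 was introduced, and they give no age. Columns of the hypothalamus controls carry a GFP prefix, and it remains unsettled whether a GFP vector was given to them. Separate animals are not stated for the replicates, and p-values therefore measure only the spread between these samples. Values are size-factor-scaled reads, that is, gene counts divided by the authors' size factor for the library, and each tissue was scaled on its own. Levels are not compared between the tissues.

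Small nucleolar RNAs (snoRNAs) guide methylation and pseudouridine formation in ribosomal RNA. In mammals most are cut from the introns of host genes. Some hosts encode ribosomal or nucleolar proteins and others, such as Gas5 and the Snhg genes, have a spliced product with little coding capacity that is often removed by nonsense-mediated decay. Malat1 gathers at nuclear speckles, which hold splicing factors, and Neat1 is the scaffold of paraspeckles. Malat1 and the long form of Neat1 end in a triple helix in place of an ordinary poly(A) tail. As the libraries began with poly(A) capture, the levels of both are those of the RNA that this capture kept.

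Depth ran from 25.95 to 36.3 M reads in genes (M, 1e+06) per choroid plexus library and from 27.4 to 62.1 M per hypothalamus library. Ins2, the check of the labels, was at 826 ± 162 in Ins2 choroid plexus (SD, n = 6) and at 430 ± 50.7 in control choroid plexus (n = 5). The lowest Ins2 library, at 598, lay above the highest control, at 501. In hypothalamus Ins2 had reads in 1 of 10 libraries, Ins2 replicate 4, with a value of 5.75. The epithelial markers of choroid plexus summed to at least 4710870 per choroid plexus library and to at most 10007 per hypothalamus library, and all 12 neuron markers averaged 10 or more in hypothalamus. A pair of libraries stood apart. Hypothalamus control 4 was the highest of 10 libraries for 20.4% and the lowest for 20.9% of the 16363 genes tested there. Ins2 choroid plexus replicate 2 was the highest of 11 for 15.1% and the lowest for 15.7% of 14533 genes. Control 2 of choroid plexus stood apart in glial markers, as given beside Dancr.

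Where these RNAs begin is shown by 50 bases around each annotated start, 30 before it and 20 from it on. They are shown for the feature that Gas5, Snhg8 and Snhg12 share there, which no measured value chose. Capitals mark the unbroken run of C and T that opens the transcript, the letters of a terminal oligopyrimidine start, known from ribosomal protein mRNAs. Sequences are RefSeq starts on GRCm38.p6, 5′ to 3′ on the gene's strand, and the first transcribed base follows the 30 bases.
Gas5, second start (chr1:161035136-161035185, plus): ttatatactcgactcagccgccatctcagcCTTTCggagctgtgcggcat
Snhg8 (chr3:123508317-123508366, minus): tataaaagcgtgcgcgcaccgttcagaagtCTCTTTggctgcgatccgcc
Snhg12 (chr4:132308648-132308697, plus): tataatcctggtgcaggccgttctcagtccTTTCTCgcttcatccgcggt
Snhg1 (chr19:8723457-8723506, plus): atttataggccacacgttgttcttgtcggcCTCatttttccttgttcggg
Malat1 (chr19:5802653-5802702, minus): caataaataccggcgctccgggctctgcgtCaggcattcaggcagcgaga
Snhg11 (chr2:158375683-158375732, plus): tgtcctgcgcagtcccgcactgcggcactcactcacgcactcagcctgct
Dancr (chr5:74093030-74093079, plus): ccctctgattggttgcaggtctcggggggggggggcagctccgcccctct

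Gas5 at its second start, Snhg8 and Snhg12 opened with runs of 5, 6 and 6 bases. The first base was C for Gas5 and Snhg8 but T for Snhg12. Snhg1 opened with 3 and Malat1 with 1, while Dancr began with G and Snhg11 with A, with no run. The first annotated start of Gas5 also began with G. Of all 32851 start windows in the table, 4.44% had a run of at least 5, as had 16 of 74 windows of Rpl and Rps genes (21.6%). The table holds no window for Snhg6 or Neat1. A run of these letters is a description of the annotated start and was not tested as a site. Where transcription began in these samples was not measured, so a run of 0 holds for the annotated start only.

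Dancr, known in human epidermal progenitors for holding back differentiation, had the largest log2 difference of the 9 between the groups in choroid plexus. It was at 123, 95.9, 167, 107, 124 and 133 in Ins2 choroid plexus replicates 1 to 6. The control replicates 1 to 5 were at 68.0, 66.3, 96.7, 65.4 and 71.2. Thus 5 of 6 Ins2 libraries lay above every control, and the groups overlapped through Ins2 replicate 2, at 95.9, and control 3, at 96.7. These values rest on 96 to 152 reads per Ins2 library and 66 to 89 reads per control library. Dancr averaged 125 ± 24.5 in Ins2 choroid plexus (SD, n = 6) and 73.5 ± 13.2 in control choroid plexus (n = 5). The log2 fold change was 0.75 ± 0.18 (SE), a fold of 1.69, with a 95% interval of 0.38 to 1.13 on the log2 scale. With each library left out in turn it ran from 0.67, without Ins2 replicate 3, to 0.86, without control 3, and it was 0.83 without Ins2 replicate 2. Dancr was chosen for being higher here, so its rank, fold and left-out range may overstate the difference. The interval does not allow for that choice.

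In that comparison 0 of the 9 RNAs passed an adjusted p of 0.05, where 0.0138% of the 14533 genes tested did. Since this contrast chose Dancr, nothing is read from the count. Groups that did not overlap were found for 0 of 9, beside 0.626% of all genes.

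Lymphocyte markers moved with the groups in choroid plexus. The 5 lymphocyte markers, of which 2 averaged 10 or more, summed to between 81.2 and 233 in Ins2 choroid plexus and to between 12.9 and 45.6 in control choroid plexus. Those ranges do not overlap, while those of the other lists do. The 10 markers of macrophages and microglia summed to 2482 to 5485 in Ins2 and 1162 to 4072 in control choroid plexus. The 7 astrocyte markers summed to 3876 to 5200 in Ins2 and 4242 to 11485 in control choroid plexus, and the 8 oligodendrocyte markers to 2374 to 5748 in Ins2 and 2344 to 53333 in control choroid plexus. The highest sums of both glial lists were those of control 2 alone, and the other 4 controls reached 6190 for astrocytes and 3049 for oligodendrocytes. Without control 2 the Dancr log2 fold change was 0.72. No marker of these 4 lists was at 0 in every library. Their part in the Dancr difference was not tested, and in bulk tissue a change in the cells present and a change in RNA per cell cannot be told apart.

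In hypothalamus the Dancr values of the groups lay over each other. The 5 Ins2 libraries were at 138, 133, 100.4, 187 and 157, and controls 1, 2, 3, 4 and 6 were at 142, 167, 139, 192 and 123. Control 4 was the highest of the 10 libraries and Ins2 replicate 3 the lowest. Means were 143 ± 32.0 in Ins2 and 153 ± 26.7 in control hypothalamus (SD, n = 5 each). The log2 fold change was -0.10 ± 0.18 (95% interval -0.47 to 0.26; limma adjusted p = 0.872, Benjamini-Hochberg over all genes), and the exact two-sided permutation p was 0.603. The difference between the tissues was not tested, because the choroid plexus values chose the gene.

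**Figure D1:**
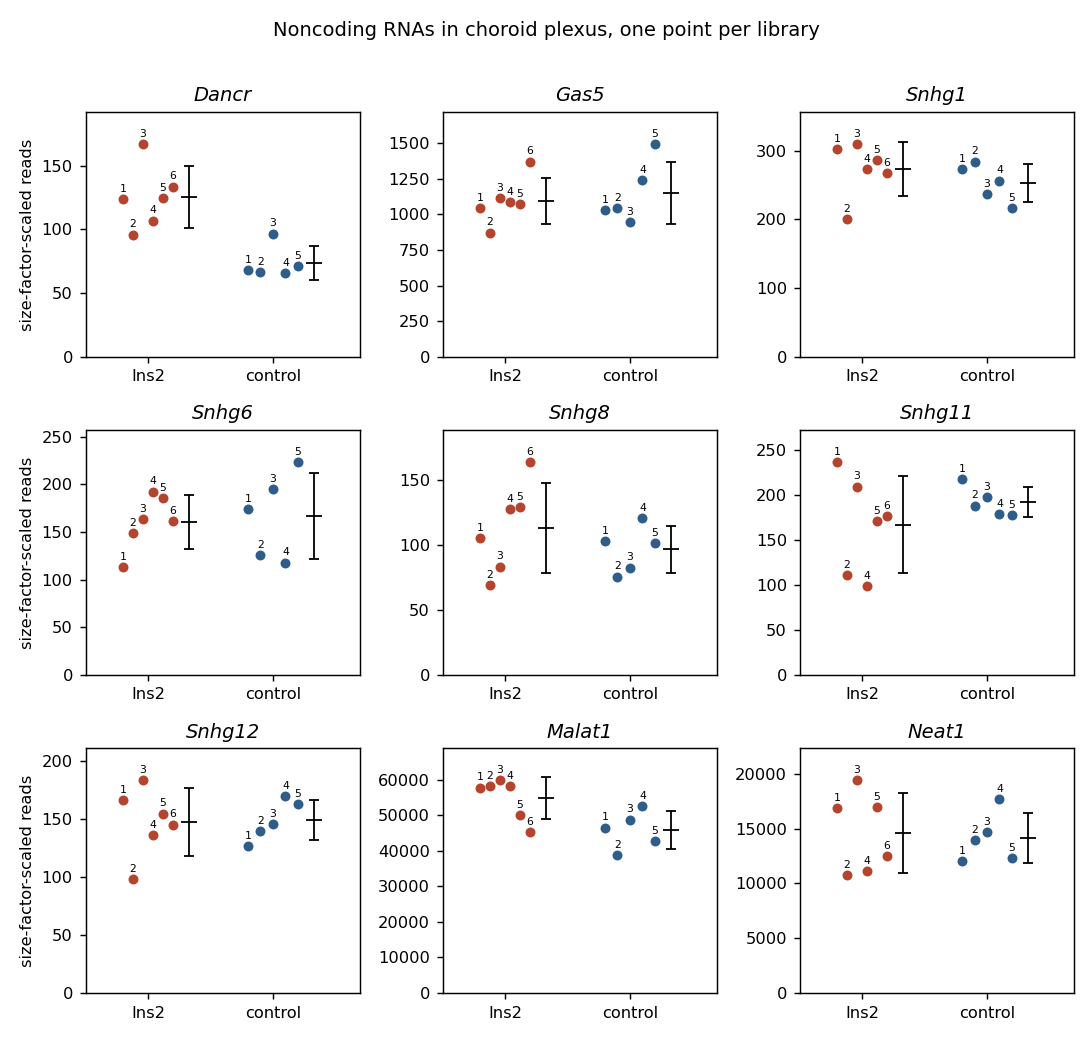
Size-factor-scaled reads (y axis, from 0) of the 9 noncoding RNAs in each choroid plexus library, Ins2 on the left and control on the right of each panel. Points are libraries with their replicate number, and bars give mean ± SD. Dancr stands at 95.9 to 167 in Ins2 and 65.4 to 96.7 in control libraries, and in every panel the groups overlap.

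The Dancr gene lies on chromosome 5 (GRCm38, 74093060 to 74095406, plus strand; GENCODE M21). It shares 3.92% of its exon bases with Gm43416 on the opposite strand, and how the authors' counting treated strand is not given in the sources used here, so a small share of its reads is uncertain. The Dancr locus encloses Snora26, a box H/ACA snoRNA of 121 bases (chr5:74093530-74093650, plus). Its sequence is shown because it is the product that defines Dancr as a host, with capitals marking the ACA box near its end.
Snora26: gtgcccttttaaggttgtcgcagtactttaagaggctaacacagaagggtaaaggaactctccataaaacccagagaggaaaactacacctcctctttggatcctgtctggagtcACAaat

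Snora26 had 0 reads in all 21 libraries, which allows up to 3 reads in each (counting error only). Its level was thus not measured here, and the Dancr values say nothing of the mature snoRNA. Its bases lie within the annotated exon bases of Dancr. Snora16a, enclosed by Snhg12, had 3 to 33 reads per choroid plexus library made in the same way. The parts of poly(A) capture and of the counting of shared bases were not tested.

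The 300 bases around the Dancr start (RefSeq, GRCm38.p6, chr5:74092810-74093109, plus, 250 before the start and 50 from it on) are printed because the choroid plexus values singled Dancr out. Capitals mark ATTGG, the reverse complement of CCAAT, the letters bound by NF-Y.
Dancr promoter: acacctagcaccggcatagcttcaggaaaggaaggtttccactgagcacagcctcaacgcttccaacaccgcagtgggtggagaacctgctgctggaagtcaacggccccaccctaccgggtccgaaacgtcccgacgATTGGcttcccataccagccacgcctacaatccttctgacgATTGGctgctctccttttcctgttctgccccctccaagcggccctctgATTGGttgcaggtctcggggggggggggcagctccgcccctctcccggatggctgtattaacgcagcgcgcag

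The window held 3 matches to CCAAT counted on both strands, all as ATTGG. Of all start windows 37.4% held at least 1 match and 3.37% at least 3. Snhg8 had 1 match and Gas5, Snhg1, Snhg11, Snhg12 and Malat1 had 0. A match describes letters, and binding was not measured.

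Gas5, named for its accumulation in growth-arrested cells, carries box C/D snoRNAs in its introns (chromosome 1, 161034422 to 161038539, plus strand). Its annotated span overlaps Zbtb37 on the opposite strand with 0 shared exon bases. The annotation places 10 snoRNA genes inside it, of which Snord47 had a row of its own. Snord47 (chr1:161038082-161038158, plus, 77 bases) is printed to show what the Gas5 locus makes beside the spliced RNA, with its C box and D box letters in capitals.
Snord47: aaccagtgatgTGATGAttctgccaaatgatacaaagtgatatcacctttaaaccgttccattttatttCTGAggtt

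Snord47 had 0 to 9 reads per choroid plexus library and 1 to 19 per hypothalamus library. Gas5 itself was at 1045, 872, 1112, 1086, 1074 and 1370 in Ins2 choroid plexus replicates 1 to 6, and at 1030, 1045, 943, 1240 and 1493 in control choroid plexus replicates 1 to 5. The 2 highest libraries, control 5 and Ins2 replicate 6, came from different groups. On the log2 scale Ins2 over control was -0.07 ± 0.11 (SE). In hypothalamus Gas5 was at 4736, 4221, 3793, 4413 and 4416 in Ins2 libraries and at 4807, 3683, 4635, 7172 and 4886 in controls 1, 2, 3, 4 and 6. Control 4 stood well above the other 9 libraries. Here the log2 fold change was -0.19 ± 0.11 (limma adjusted p = 0.580; exact permutation p = 0.294), and -0.06 ± 0.07 without control 4 (limma adjusted p = 0.850).

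Snhg1, which carries 8 annotated snoRNA genes including Snord22, lies on chromosome 19 (8723475 to 8726443, plus strand). In choroid plexus it was at 303, 201, 309, 273, 286 and 267 in Ins2 and at 273, 284, 237, 257 and 216 in control libraries, with a log2 fold change of 0.10 ± 0.12. In hypothalamus the 5 Ins2 libraries lay close together at 451, 460, 482, 455 and 468, and the controls were at 575, 472, 556, 658 and 501. The groups overlapped only through control 2, at 472, which was below Ins2 replicate 3, at 482. Ins2 over control gave a log2 fold change of -0.24 ± 0.09 (exact permutation p = 0.0159; limma adjusted p = 0.396), so the difference did not pass over all genes. It was -0.18 without control 4 (limma adjusted p = 0.598).

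Snhg6, host of Snord87 on chromosome 1 (9941959 to 9944118, minus strand), had the largest log2 difference of the 9 in hypothalamus. It was at 160.2, 280, 207, 174 and 199.9 in Ins2 hypothalamus and at 296, 232, 260.5, 282 and 284 in controls. Ins2 replicate 2 lay among the controls and the other 4 Ins2 libraries below them. Its log2 fold change was -0.43 ± 0.14 (exact permutation p = 0.0238; limma adjusted p = 0.362), which did not pass.

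Measured facts stand beside that Snhg6 difference. In each hypothalamus group the highest Snhg6 library was the deepest one, with 62.1 M reads for Ins2 replicate 2 and 47.2 M for control 1. On log2 deviations from the group means, the correlation of Snhg6 with depth was 0.72 in hypothalamus but -0.60 in choroid plexus. Mcmdc2, on the opposite strand, shares 11.1% of the exon bases of Snhg6, and it stood at 68.3 ± 10.98 in Ins2 and 102 ± 26.3 in control hypothalamus (SD, n = 5 each; limma adjusted p = 0.388). The parts of depth and of the opposite strand were not tested. In choroid plexus Snhg6 was at 113, 149, 164, 193, 186 and 162 in Ins2 libraries and at 174, 126, 196, 118 and 223 in controls (log2 fold change -0.03 ± 0.18), with the control range enclosing nearly all Ins2 values.

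Snhg8 is a short host on chromosome 3 (123507552 to 123508404, minus strand) that encloses Snora24, and Snora24 had 0 reads in all 21 libraries. It was at 105, 69.4, 83.4, 128, 129 and 164 in Ins2 choroid plexus and at 103, 75.7, 82.6, 121 and 101 in control choroid plexus (log2 fold change 0.19 ± 0.21). In hypothalamus it was at 348, 336, 316, 351 and 306 in Ins2 libraries and at 252, 255, 303, 529 and 287 in controls. All 5 Ins2 libraries lay above 4 of the 5 controls, and control 4 lay above all of them. With all libraries the log2 fold change was 0.08 ± 0.16 (limma adjusted p = 0.882; exact permutation p = 0.778) and 0.27 ± 0.11 without control 4 (limma adjusted p = 0.514).

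Snhg12 (chromosome 4, 132308623 to 132311024, plus strand) encloses 5 annotated snoRNA genes. Among the 4 with rows, Snora16a had the most reads, 3 to 33 in choroid plexus and 18 to 48 in hypothalamus libraries. Snhg12 was at 166, 98.4, 183, 136, 154 and 145 in Ins2 choroid plexus, lowest in replicate 2, and at 127, 139, 146, 169 and 163 in control choroid plexus (log2 fold change -0.03 ± 0.16). In hypothalamus it was at 611, 504, 646, 660 and 537 in Ins2 libraries and at 538, 473, 575, 873 and 643 in controls. Control 4 was again the highest. Its log2 fold change there was -0.04 ± 0.13 (limma adjusted p = 0.931; exact permutation p = 0.817), and its sign turned without control 4, at 0.09.

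**Figure D2:**
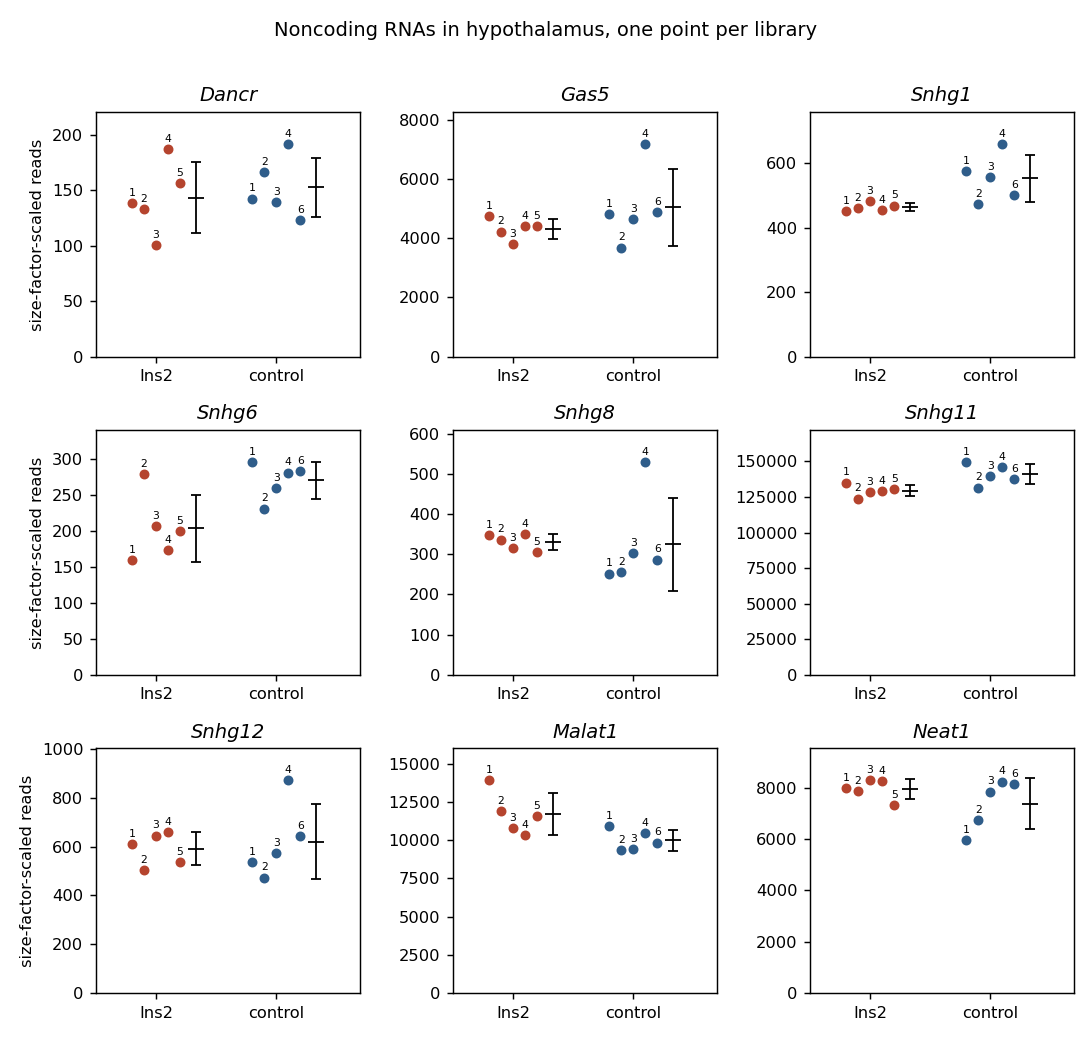
Size-factor-scaled reads (y axis, from 0) of the 9 noncoding RNAs in each hypothalamus library, Ins2 on the left and control on the right, with replicate numbers beside the points and bars for mean ± SD (n = 5 each). Control 4 is the highest control for Dancr, Gas5, Snhg1, Snhg8, Snhg12 and Neat1, and Snhg1 spans 451 to 482 in Ins2 against 472 to 658 in control libraries.

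Snhg11, an RNA abundant in neurons, varied little between hypothalamus libraries. On chromosome 2 (158375638 to 158386145, plus strand), it was at 135123, 123801, 128513, 129326 and 130493 in Ins2 hypothalamus. The controls were at 149434, 131527, 139912, 145842 and 137763. The groups overlapped through control 2 and Ins2 replicate 1 only. Means were 129451 ± 4064 in Ins2 and 140896 ± 6999 in control hypothalamus, and the log2 fold change was -0.12 ± 0.04 (exact permutation p = 0.0159; limma adjusted p = 0.366). The difference did not pass over all genes. Its within-group SD, 0.06 on the log2 scale, was above that of 7.57% of the genes tested. The 12 neuron markers summed to between 198367 and 209334 in Ins2 and to between 197572 and 209452 in control hypothalamus, so their ranges overlapped nearly wholly. The mean log2 level of these markers was 13.67 in Ins2 and 13.62 in control hypothalamus. Within groups its correlation with Snhg11 was -0.59. The part of these markers in the Snhg11 difference was not tested.

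In choroid plexus 8 of the 12 neuron markers averaged 10 or more, and the 12 summed to 2235 to 3170 in Ins2 and 2038 to 2690 in control libraries. Within groups the correlation of their mean log2 level with Snhg11 was 0.13. By its mean, Snhg11 stood above 29.9% of the genes tested in this tissue. It was at 237, 111, 210, 99.1, 171 and 176 in Ins2 libraries and at 218, 188, 198, 179 and 178 in controls. Ins2 replicates 2 and 4 lay well below all others. Ins2 over control stood at a log2 fold change of -0.26 ± 0.19.

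Malat1 (chromosome 19, 5795690 to 5802672, minus strand) had a log2 fold change above 0 in both tissues, as had Snhg8 and Neat1. Those of Snhg8 in both tissues and of Neat1 in choroid plexus were smaller than their SE. Malat1 was at 57752, 58166, 59809, 58165, 50102 and 45250 in Ins2 choroid plexus and at 46480, 38778, 48714, 52537 and 42625 in control choroid plexus. Ins2 replicates 1 to 4 lay above every control, and replicates 5 and 6 lay among them. Its log2 fold change was 0.26 ± 0.08 (95% interval 0.09 to 0.43), given with no test.

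In hypothalamus Malat1 was at 13931, 11907, 10806, 10349 and 11577 in Ins2 libraries and at 10944, 9366, 9423, 10483 and 9847 in controls. Ins2 replicates 1, 2 and 5 lay above every control. The log2 fold change was 0.22 ± 0.06 (95% interval 0.09 to 0.35; exact permutation p = 0.0397), and the limma adjusted p was 0.326, so it did not pass over all genes. The annotation gives 6.49% of its exon bases to Gm37376 on the opposite strand as well.

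Neat1 (chromosome 19, 5824708 to 5845478, minus strand) spread more widely. It was at 16903, 10752, 19434, 11112, 16996 and 12491 in Ins2 choroid plexus and at 12040, 13974, 14729, 17689 and 12289 in control choroid plexus. Both groups covered much the same range, with a log2 fold change of 0.02 ± 0.14. In hypothalamus it was at 7978, 7856, 8286, 8244 and 7324 in Ins2 libraries and at 5949, 6723, 7845, 8234 and 8126 in controls. Controls 1 and 2 lay below all Ins2 libraries. The log2 fold change was 0.12 ± 0.07 (limma adjusted p = 0.603; exact permutation p = 0.278).

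**Figure D3:**
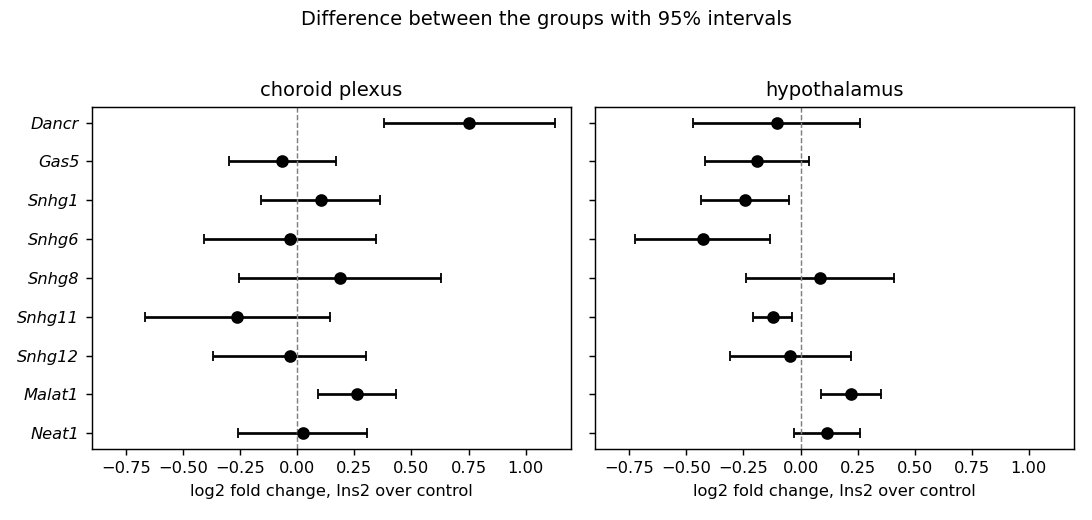
Log2 fold change of Ins2 over control (x axis) for each noncoding RNA (y axis) in choroid plexus on the left and hypothalamus on the right. Points are limma estimates and bars are 95% intervals. Dancr lies at 0.75 in choroid plexus and -0.10 in hypothalamus, and Malat1 at 0.26 and 0.22.

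Across the hypothalamus comparison 0 of the 9 RNAs passed an adjusted p of 0.05, where 0% of the 16363 genes tested did (limma). An unadjusted p under 0.05 was reached by 4 of 9 (Snhg1, Snhg6, Snhg11 and Malat1), beside 9.92% of all genes (1624 genes). Of the 4, Malat1 was higher and the other 3 lower in Ins2 hypothalamus. The smallest p that the exact test of 252 splits allows is 0.00794. Groups that did not overlap were found for 0 of 9, beside 1.5% of all genes. No gene was called by edgeR either, while DESeq2 called 39 of the 6268 genes to which it gave an adjusted p. Only 4 of the 9 RNAs (Gas5, Snhg11, Malat1 and Neat1) were among those 6268, and 0 of the 4 were called.

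Per length of annotated exon, levels were ranked within each tissue. In Ins2 choroid plexus Malat1 led with 267 reads per kb per M reads, followed by Neat1 (23.9), Gas5 (9.91), Snhg6 (4.78), Snhg8 (4.53), Snhg1 (3.13), Snhg12 (2.09), Dancr (1.81) and Snhg11 (0.668). Snhg6 and Snhg8, and likewise Snhg12 and Dancr, differed by less than their spread, as their coefficients of variation were 17.6%, 30.4%, 19.8% and 19.6%. In control choroid plexus Dancr was at 1.05 and Snhg12 at 2.08. Here the gap between these 2 exceeded their coefficients of variation of 17.9% and 11.7%.

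In Ins2 hypothalamus Snhg11 led with 427 reads per kb per M reads. Malat1 (47.2), Gas5 (32.3), Snhg8 (10.9), Neat1 (10.7), Snhg12 (6.92), Snhg6 (5.003), Snhg1 (4.39) and Dancr (1.71) followed. Snhg8 and Neat1 could not be separated by their spread, nor could Snhg6 and Snhg1. The length counts every annotated exon base, which lowers the level of a gene whose main transcript is short. For the hosts Dancr, Snhg1, Snhg8 and Snhg12 these exon bases equal the whole gene span, with the enclosed snoRNAs included. The ranks thus depend on the annotation.

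Joint variation was measured on deviations from the group means, log2(value + 1), over all 36 pairs of the 9 RNAs. In choroid plexus the median Pearson's r was 0.14 and 26 of 36 pairs were positive (11 libraries). In hypothalamus the median was 0.27 and 28 pairs were positive (10 libraries). No pair passed after Benjamini-Hochberg adjustment over the 36 pairs in either tissue by permutation within groups, and 2 pairs in choroid plexus and 4 in hypothalamus had an unadjusted p under 0.05. Without hypothalamus control 4 the hypothalamus median was 0.02, and without Ins2 replicate 2 the choroid plexus median was -0.02. The positive tilt in each tissue thus rested on 1 library.

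Snhg12 and Neat1 had the highest r in choroid plexus, 0.80 (permutation p = 0.00419, adjusted p = 0.151), with a Spearman's rho of 0.85 (permutation p = 0.00291, adjusted p = 0.105). The r was 0.67 without the 2 libraries farthest from the median of Snhg12. In hypothalamus the pair stood at r = 0.70 (permutation p = 0.0761, adjusted p = 0.432) and rho = 0.79 (permutation p = 0.00980, adjusted p = 0.353), with r at 0.62 without the 2 farthest libraries and 0.63 without control 4. Its r thus stayed at 0.62 or more in both tissues when the farthest libraries were left out. Within groups the correlation with depth in hypothalamus was -0.55 for Snhg12 and -0.51 for Neat1. In choroid plexus it was -0.46 for Snhg12 and -0.03 for Neat1. The part of depth in this pair was not tested.

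Gas5 and Snhg8 stood at r = 0.68 in choroid plexus (permutation p = 0.0196, adjusted p = 0.346) and rho = 0.57 (permutation p = 0.0709, adjusted p = 0.511), with r at 0.66 without the 2 libraries farthest from the median of Gas5. In hypothalamus they stood at r = 0.87 (permutation p = 0.0323, adjusted p = 0.378) and rho = 0.62 (permutation p = 0.0728, adjusted p = 0.556). There r was 0.45 without control 4 and 0.33 without the 2 farthest libraries. Gas5 and Snhg8 correlated with depth at -0.50 and -0.54 in choroid plexus and at -0.23 and -0.32 in hypothalamus. The part of depth was not tested.

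Other hypothalamus pairs leaned on control 4 as well. Gas5 and Snhg1 were at r = 0.77 (permutation p = 0.0997, adjusted p = 0.432) but at rho = 0.14 (permutation p = 0.765, adjusted p = 0.946). Without control 4 r was 0.37, and without the 2 libraries farthest from the median of Gas5 it was -0.46. That relation thus rests on those 2 libraries. Leaving out control 4 took r from 0.72 to -0.05 for Snhg1 with Snhg8 and from 0.80 to 0.42 for Gas5 with Snhg12.

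Dancr itself followed Snhg11 most closely in choroid plexus, at r = 0.61 (permutation p = 0.0663, adjusted p = 0.346) and rho = 0.71 (permutation p = 0.0337, adjusted p = 0.468), with r at 0.74 without the 2 libraries farthest from the median of Dancr. Snhg12 came next, at r = 0.60 (permutation p = 0.0768, adjusted p = 0.346) and rho = 0.57 (permutation p = 0.1002, adjusted p = 0.515), with r at 0.70 without the 2 farthest. Taken by group, these r were 0.76 and 0.87 in Ins2 choroid plexus but 0.19 and -0.07 in control choroid plexus. Over both groups without Ins2 replicate 2 they were 0.48 and 0.38. In hypothalamus they were 0.12 and 0.21. Dancr correlated with depth within groups at -0.51 in choroid plexus and -0.28 in hypothalamus, and the part of depth was not tested.

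**Figure D4:**
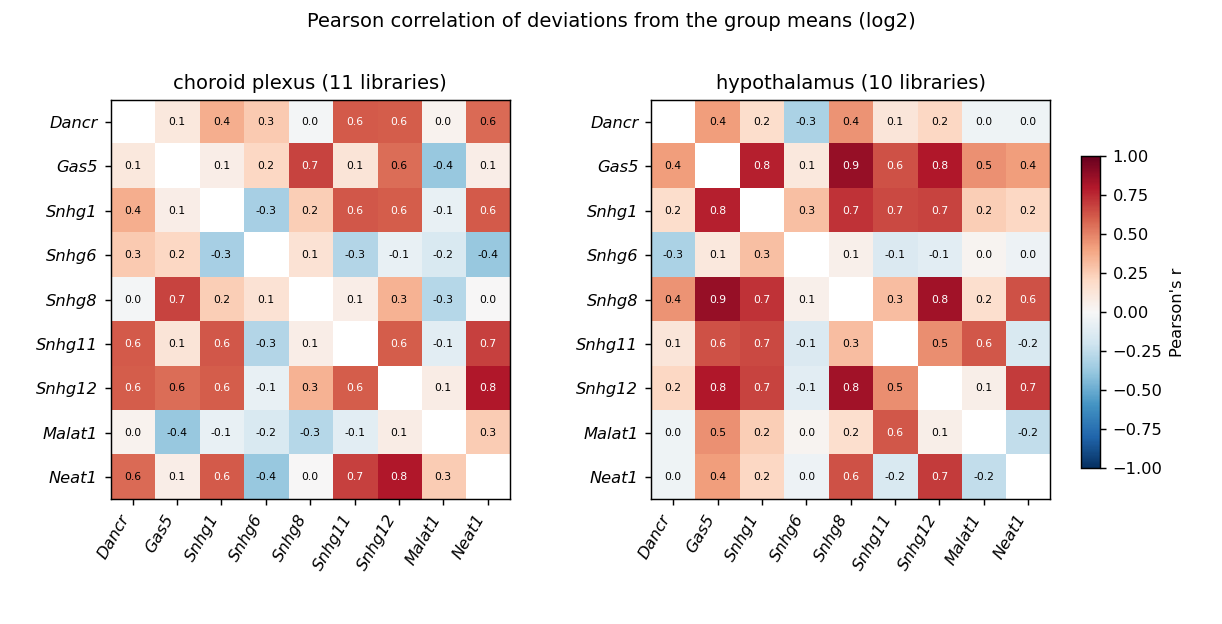
Pearson's r (colour and printed value) between each pair of noncoding RNAs, on log2 deviations from the group means, over 11 choroid plexus libraries (left) and 10 hypothalamus libraries (right). Snhg12 with Neat1 reaches 0.80 in choroid plexus, and Gas5 with Snhg8 reaches 0.87 in hypothalamus, where the block of Gas5, Snhg1, Snhg8 and Snhg12 is positive throughout.

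Control 4 of hypothalamus carried much of that block. Against the mean of the other 4 controls it held 1.93 times the Snhg8 level, 1.59 times that of Gas5, 1.57 times that of Snhg12, 1.34 times that of Dancr and 1.25 times that of Snhg1. Malat1 was at 1.06 times and Snhg11 at 1.04 times the mean of the other controls. Among 22 protein-coding snoRNA hosts, such as Rpl13a, Eef2 and Hspa8, 20 had their highest value of the 10 hypothalamus libraries in control 4, as had 20.4% of all genes. Their median deviation was 0.19 on the log2 scale. The same library was the highest for 6 of 12 snoRNP proteins, 4 of 13 other noncoding hosts and 5 of the 9 RNAs described here. It was also the highest for 7 of 14 paraspeckle proteins, 4 of 14 nuclear speckle proteins, 5 of 21 other long noncoding RNAs and 1 of 10 nonsense-mediated decay factors. Its 27.6 M reads were the second fewest in hypothalamus. Its 9 markers of choroid plexus epithelium summed to 10007, beside 8981 to 9689 in Ins2 libraries. They summed to 9910 in control 2, which had the lowest Gas5, Snhg1 and Snhg12 of the controls, and to 8700 to 9215 in the other controls. The mean log2 level of these markers spread more widely. It deviated from the group mean by 0.28 in control 4, 0.37 in control 2, -0.67 in control 6 and 0.30 in Ins2 replicate 1. The other libraries ran from -0.17 to 0.18. The part of depth and of these markers was not tested.

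**Figure D5:**
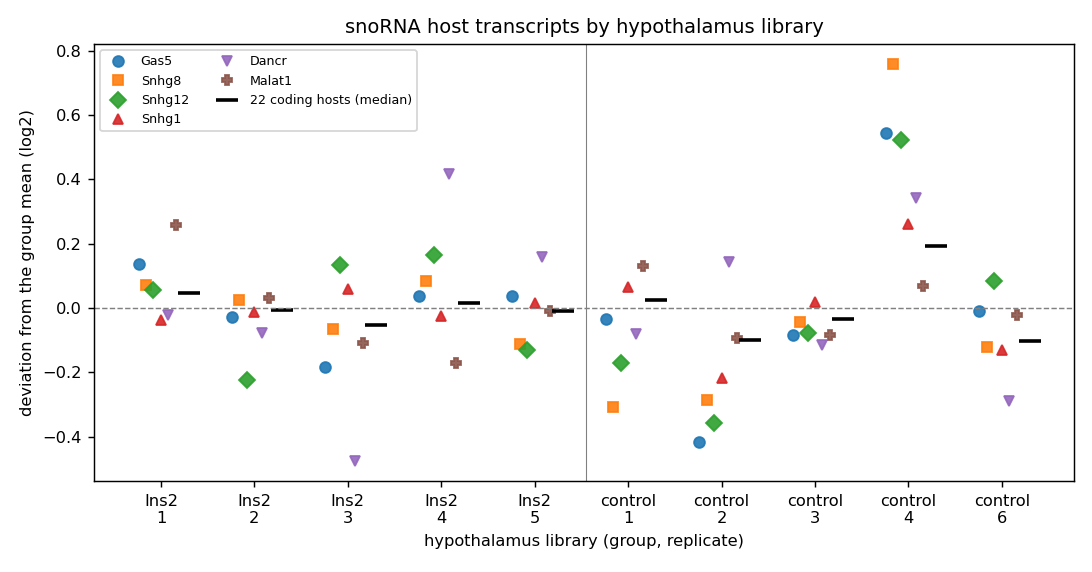
Deviation from the group mean on the log2 scale (y axis) of Gas5, Snhg8, Snhg12, Snhg1, Dancr and Malat1 in each hypothalamus library (x axis, Ins2 libraries first), with a black bar for the median of 22 protein-coding snoRNA hosts. Control 4 stands at 0.76 for Snhg8, 0.54 for Gas5 and 0.52 for Snhg12, with the coding hosts at 0.19.

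The genes whose deviations were most like those of each RNA in both tissues were found among 13996 genes tested in both, by the smaller of the 2 Pearson's r. For Gas5 these were Lamtor5 (smaller r 0.89), Phtf1os (0.85) and 3 ribosomal protein genes, Rpl36al (0.83), Rps25 (0.83) and Rps7 (0.83). The annotated starts of Rpl36al, Rps25 and Rps7 opened with C and T runs of 0, 0 and 2 bases. Rps25, a small-subunit protein, was at 7058 to 7802 in Ins2 hypothalamus and 7204 to 11091 in control hypothalamus, where control 4 was the highest, as it was among controls for the other 4 genes. Without it the smaller r of the 5 were 0.68, 0.69, 0.65, 0.72 and 0.49. For Neat1 they were Prrt2 (0.89), Erp29 (0.87), Atp6v0b (0.86), Rrbp1 (0.86) and Apoe (0.85). Without control 4 these 5 ran from 0.86 to 0.88. Erp29 and Rrbp1 encode endoplasmic reticulum proteins, and Apoe a lipid carrier.

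For Dancr the likeness was lower, with Jag1, a Notch ligand, at 0.71, Ctsl at 0.69, Omd at 0.68, Irf1 at 0.67 and AI429214 at 0.66. The 5 ran from 0.58 to 0.77 without hypothalamus control 4 and from 0.49 to 0.71 without Ins2 choroid plexus replicate 2. Unlike Dancr, Jag1 had like medians in the groups, 288 in Ins2 and 279 in control choroid plexus, since likeness was measured within groups. For Malat1 they were Bend7 (0.79), Zfp619 (0.76), Thumpd2 (0.72), Ifi27l2b (0.72) and Atp10d (0.69). These r values are descriptions over 11 and 10 libraries that share depth and scaling, and each is the top of many.

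Genes that work with these RNAs were followed as lists. Of 13 other noncoding snoRNA hosts tested in hypothalamus, 0 passed (limma), 11 were below 0 and the median log2 fold change was -0.05, beside 0.00 over all genes. Zfas1 was at 1183 ± 70.4 in Ins2 and 1233 ± 374 in control hypothalamus, and Snhg20 at 594 ± 23.1 in Ins2 and 635 ± 108 in control hypothalamus (SD, n = 5 each). Of the 22 protein-coding hosts 0 passed, 20 were below 0 and the median was -0.09. An unadjusted p under 0.05 was reached by 7 of these 22 and 0 of the 13, beside 9.92% of all genes, and by 3 of 12 snoRNP proteins, 1 of 10 decay factors, 4 of 14 paraspeckle proteins, 3 of 14 nuclear speckle proteins and 2 of 21 other long noncoding RNAs. Hspa8, a heat shock cognate chaperone, was at 70352 ± 2951 in Ins2 and 76575 ± 5073 in control hypothalamus. Without control 4 the members below 0 were 7 of 13 noncoding hosts (median -0.05) and 18 of 22 protein-coding hosts (median -0.05).

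Proteins of the snoRNA particles carry out or assemble the modification machinery. Among 12 tested in hypothalamus 0 passed, 7 were above 0 and the median was 0.05. Snu13, which binds kink-turn RNAs, was at 4510 ± 195 in Ins2 and 4965 ± 506 in control hypothalamus. The 10 nonsense-mediated decay factors had a median of 0.01 with 0 passing, and their helicase Upf1 was at 4179 ± 140.4 in Ins2 and 3825 ± 473 in control hypothalamus.

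Partners of the nuclear RNAs came next. Of 14 paraspeckle proteins 0 passed in hypothalamus (median 0.03), with Hnrnpk at 16522 ± 275 in Ins2 and 16714 ± 628 in control libraries. Of 14 nuclear speckle proteins 0 passed, 12 were below 0 and the median was -0.06. Srrm2, a speckle scaffold, was at 21674 ± 781 in Ins2 and 21537 ± 1763 in control hypothalamus. Among 21 other long noncoding RNAs tested 0 passed (median -0.02), with the imprinted Meg3 at 149534 ± 5220 in Ins2 and 149037 ± 6212 in control hypothalamus.

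In choroid plexus the same lists were described without weight on the test, and 0 of their genes passed. Median log2 fold changes were 0.03 for 13 other noncoding hosts, 0.04 for 22 protein-coding hosts, 0.06 for 12 snoRNP proteins and -0.02 for 10 decay factors. They were 0.04 for 14 paraspeckle proteins, 0.02 for 14 speckle proteins and 0.03 for 20 other long noncoding RNAs, beside 0.00 over all genes. Log2 fold changes ran from -0.21 to 0.37 among the noncoding hosts, from -0.09 to 0.38 among the protein-coding hosts and from -1.06 to 1.60 among the other long noncoding RNAs. Sfpq, which binds Neat1, was at 5013 ± 314 in Ins2 (SD, n = 6) and 4659 ± 338 in control choroid plexus (n = 5), and the paraspeckle list ran from -0.13 to 0.24.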

How the data were processed

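Bulk poly(A) RNA was sequenced as strand-marked libraries from 11 choroid plexus and 10 hypothalamus samples, per the labels' protocols. HISAT2, featureCounts and DESeq2 with GRCm38 (mm10) are named in the submitters' processing notes, with versions and strand setting not given in the sources used here. The deposited signal values are the authors' gene counts divided by DESeq2 size factors, per the labels. Low values were whole multiples of a step, so whole reads were recovered (100% of values within 0.02). Genes averaging 10 or more were tested per tissue with limma 3.58.1 (R 4.3.3; trended eBayes) on log2(value + 1), with Benjamini-Hochberg adjustment. Fold changes on that scale understate those of low genes. Single genes had an exact permutation test in hypothalamus. Pairs were tested with 100000 permutations within groups. Tests were checked on simulated data. edgeR 4.0.16, DESeq2 1.42.0 (both on recovered reads), other pseudocounts, filters, scalings and left-out libraries were alternatives. Members and lists were chosen with earlier results of these data known. The naming rule took the members, every called gene and the 3 highest genes of each list, some of which are printed, and 5 like genes for Dancr, Gas5, Malat1 and Neat1. Replicates were not duplicates (lowest chi-square per gene 5.55).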

Additional observations from a re-analysis of the deposited data

Results flagged for a closer look

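Among 36 sets of library values (9 RNAs in 4 groups), 2 held a library far from the rest of its group, where chance flags about 1 set in 20. Dancr in control choroid plexus replicate 3 was 96.7, with the next control at 71.2. Snhg8 in control hypothalamus replicate 4 was 529, with the next control at 303. The first is the control library that overlaps the Ins2 range of Dancr, and the second is the hypothalamus library that stood apart over all genes.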

How the results depend on the processing

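No RNA of the 9 was called under the 20 choroid plexus or 19 hypothalamus alternatives, except that DESeq2 gave an adjusted p to 3 of 9 in choroid plexus (not to Dancr) and to 4 of 9 in hypothalamus only. The Dancr log2 fold change in choroid plexus ran from 0.67 to 0.86 when a library was left out and from 0.72 to 0.77 under the other settings. Signs turned in choroid plexus in 2 of the 20 alternatives for Gas5, 3 for Snhg6, 4 for Snhg12 and 5 for Neat1. In hypothalamus the Dancr log2 fold change ran from -0.208 to 0.0150 when a library was left out, above 0 without Ins2 replicate 3 only. That of Snhg12 ran from -0.134 to 0.0864, above 0 without Ins2 replicate 2 (0.0112) or control 4 (0.0864), and was also above 0 with array weights (0.0216) and with the replicate block (0.0095). The cause was not tested. Of the listed genes, 0 to 1 passed when a choroid plexus library was left out. The 1 was Kcnq1ot1 without Ins2 replicate 5 (log2 fold change 0.65, limma adjusted p = 0.0460). Likewise 0 to 1 pair was called, Snhg12 with Neat1 without choroid plexus control 5 (r = 0.88, permutation adjusted p = 0.0187). The median r in hypothalamus was 0.43 without control 1.

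Libraries of the 2 groups that share a replicate number were compared by their deviations from the group means. The correlations ran from -0.148 to 0.140 in choroid plexus (5 pairs) and from -0.070 to 0.009 in hypothalamus (4 pairs). Such low values cannot exclude a pairing. Some hypothalamus titles carry a code whose number differs from the replicate number, and pairing by code was not tried. With the number as a replicate block 0 members were called. Over all genes the block called 2 in choroid plexus, as without it, and 57 in hypothalamus, beside 0 without it. DESeq2 called 31 in choroid plexus, array weights 6 and a mean of at least 50 left 1. In hypothalamus 18 were called without control 6 and 1 without control 4. Dancr rests on 66 to 152 reads per choroid plexus library, which limits its precision. A check of the likeness lists without hypothalamus control 4, chosen after seeing the data, took the median smaller r of the 5 genes most like Gas5 to 0.68, beside 0.83 with all libraries.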
